A study of Mus musculus with 24 samples.

Results

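The NRF2 oxidative stress pathway was described through the listed m6A peaks of 9 genes, namely Nfe2l2, Keap1, Bach1, Gclc, Gclm, Txnrd1, Srxn1, Nqo1 and Hmox1. A peak belonged to a gene when it overlapped one of the gene's exons by at least 1 bp on the same strand of GRCm38, whatever its score. Of the 9 genes, 5 had a peak in at least 1 of 12 kidneys, against 7765 of all 21924 protein-coding genes. Their 53 peaks, of 91013 in the 12 lists, formed 10 loci of 16815, a locus being a stretch where peaks of any kidneys overlapped.

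The kidneys came from male C57BL/6 mice aged 8 weeks, 4 in the control group, 4 in the injury group (IG) and 4 in the treatment group (TG), 1 kidney sample per mouse. Control mice received vehicle and no cisplatin. IG mice received vehicle every day and then cisplatin, a platinum drug that damages kidney tubules, once at 20 mg/kg. TG mice received berberine, a plant alkaloid, at 20 mg/kg per day for 14 days and then the same dose of cisplatin. Kidneys were taken 72 h after cisplatin. No group received berberine alone, so a difference between TG and IG cannot be told apart from an effect of berberine without injury. In MeRIP-seq an antibody enriches RNA fragments that carry N6-methyladenosine (m6A), and the authors listed for each kidney the exonic stretches in which reads piled up. Each listed peak carries a score from MACS, the negative log10 of its p-value multiplied by 10. A score grows with depth and with the amount of RNA as well as with methylation, so it is not a level of methylation, and whole kidney cannot separate fewer cells of a type from less RNA per cell.

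NRF2, encoded by Nfe2l2, is a transcription factor that is held at a low level while KEAP1 hands it to an E3 ubiquitin ligase for destruction. Oxidants and electrophiles modify KEAP1, NRF2 escapes, enters the nucleus and binds antioxidant response elements, the sites from which BACH1 is displaced when haem rises. Its targets make glutathione (Gclc, Gclm), reduce thioredoxin (Txnrd1) and oxidised peroxiredoxins (Srxn1), reduce quinones (Nqo1) and degrade haem (Hmox1). In the kidney the pathway is best known from the tubular epithelium under toxic and ischaemic stress. m6A is most often written at the sequence RRACH, where R is A or G and H is A, C or T, and GGACT is among its commonest forms.

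Exons that the results turn on are shown 5′ to 3′ on the gene's strand, with each RRACH in capitals and GRCm38 positions from the GENCODE transcripts. They are the exon of Nfe2l2 with a peak in the most control kidneys, the Bach1 and Txnrd1 exons listed in all 12 kidneys, and the second Txnrd1 exon, whose peak was listed in fewer kidneys. The 4 exons are coding throughout.
Nfe2l2 exon 2, chr2:75679163-75679429, minus strand: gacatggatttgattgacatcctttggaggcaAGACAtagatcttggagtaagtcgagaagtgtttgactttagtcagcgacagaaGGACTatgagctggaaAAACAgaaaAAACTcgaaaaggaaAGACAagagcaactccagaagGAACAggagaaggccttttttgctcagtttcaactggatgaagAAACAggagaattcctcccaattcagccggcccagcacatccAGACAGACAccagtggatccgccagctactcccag
Bach1 exon 4, chr16:87722402-87722608, plus strand: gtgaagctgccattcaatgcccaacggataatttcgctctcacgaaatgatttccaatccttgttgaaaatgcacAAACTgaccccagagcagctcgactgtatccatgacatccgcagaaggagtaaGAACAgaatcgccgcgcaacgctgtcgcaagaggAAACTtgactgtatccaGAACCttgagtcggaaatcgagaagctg
Txnrd1 exon 8, chr10:82881723-82881948, plus strand: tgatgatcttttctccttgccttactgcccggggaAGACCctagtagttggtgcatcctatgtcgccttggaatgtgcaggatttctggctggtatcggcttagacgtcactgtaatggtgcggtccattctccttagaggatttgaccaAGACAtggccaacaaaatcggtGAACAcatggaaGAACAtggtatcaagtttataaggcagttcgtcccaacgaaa
Txnrd1 exon 11, chr10:82884942-82885098, plus strand: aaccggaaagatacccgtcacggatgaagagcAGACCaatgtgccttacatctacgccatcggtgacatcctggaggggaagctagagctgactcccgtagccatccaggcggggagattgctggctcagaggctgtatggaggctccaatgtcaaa

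Nfe2l2 exon 2 held 9 copies of RRACH in 267 bases, the last of which overlap, and 1 of them was GGACT. Of 4566 fully coding exons within 10% of that length, 98% held RRACH, 25.1% held GGACT and 1.86% held as many copies of RRACH. Bach1 exon 4 held 4 copies in 207 bases, Txnrd1 exon 8 held 4 in 226 bases, and Txnrd1 exon 11 held 1 in 157 bases. Of coding exons of like length, 38.8%, 44.4% and 91.6% held at least as many copies, in the same order. None of these 3 exons held GGACT, which 15.9% to 22% of coding exons of like length did. The Bach1 peaks ran past exon 4, over a locus of 519 bp, and the bases beyond that exon were not searched. On the opposite strand the 4 exons held from 0 to 3 copies of RRACH and 0 of GGACT. The motif is common enough that a match describes the sequence and does not place a methylated base.

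Over the whole mRNA, Nfe2l2 was the richest of the 9 genes in both motifs, with 19 RRACH and 2.42 GGACT per kb, against medians of 14.8 and 1.02 over 21866 protein-coding mRNAs. Among the genes without a listed peak, Gclc had 14 RRACH per kb, Gclm 12.5, Hmox1 12.1 and Nqo1 10.3. Among those with one, Keap1 had 12.5, Bach1 12.6, Txnrd1 14.4 and Srxn1 16. Nqo1 and Hmox1 were thus below every gene with a peak, while Gclc and Gclm were within the range of those genes. GGACT was absent from the Hmox1 mRNA, which is 1569 bases long. The other genes without a peak had 1.29 (Nqo1), 0.716 (Gclm) and 0.584 (Gclc) GGACT per kb. Those with one had 1.42 (Srxn1), 1.36 (Bach1), 1.11 (Keap1) and 0.552 (Txnrd1) beside Nfe2l2, so the 2 sets overlapped.

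Across the pathway, controls had the most listed peaks and TG the fewest. The 9 genes had 7, 7, 5 and 8 peaks in the 4 control kidneys, 4, 5, 3 and 3 in the IG kidneys and 2, 3, 3 and 3 in the TG kidneys. The means were 6.75 ± 1.26 (SD, n = 4), 3.75 ± 0.957 and 2.75 ± 0.5. The lists themselves also shortened, from 8531 to 9579 peaks in controls to 6745 to 8357 in IG and 5901 to 6753 in TG. Per 1000 listed peaks the 9 genes accounted for 0.754 in the control group, 0.505 in the IG group and 0.431 in the TG group. In single kidneys the ranges were 0.556 to 0.835, 0.359 to 0.671 and 0.304 to 0.508, so neighbouring groups overlapped. Fewer IG than control kidneys had a peak at 7 of 10 loci and more at 1, against fewer at 46.3% of all loci. From IG to TG the number of kidneys was lower at 3 of 5 loci, against 43.4% of all loci. For TG against controls, a comparison added after the values were seen and one that shares its kidneys with both others, it was lower at 7 of 9 loci, against 54.9%.

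**Figure D1:**
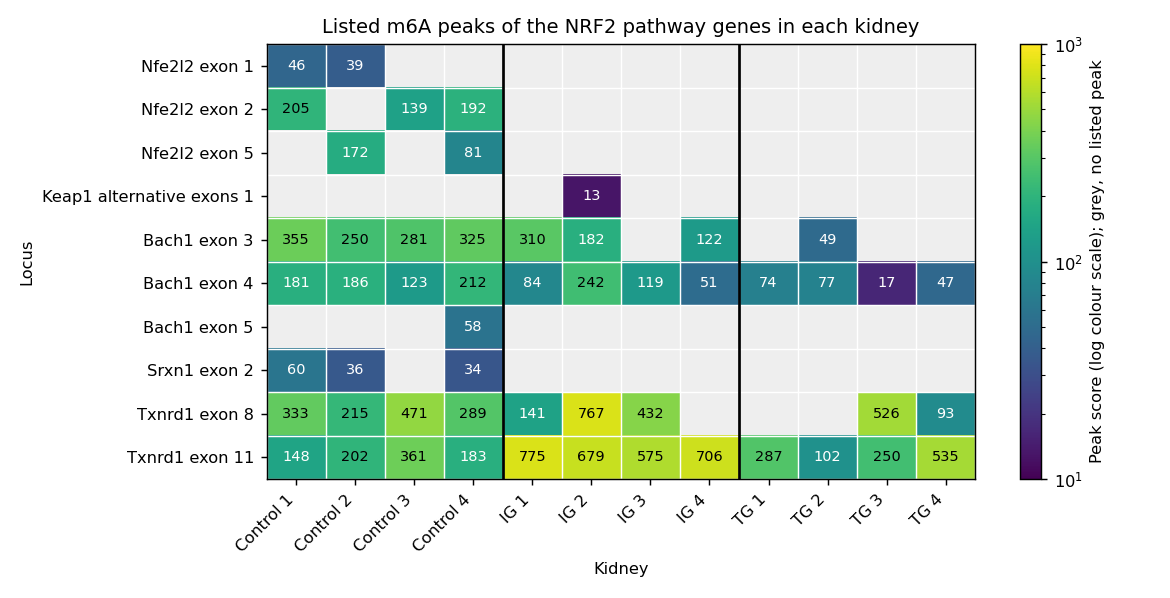
Scores of the listed peaks at the 10 loci (rows) in each of the 12 kidneys (columns), with the rounded score in each cell, colour on a log scale and grey where no peak was listed. The 3 Nfe2l2 loci and the Srxn1 locus are filled in control kidneys only, Bach1 exon 4 and Txnrd1 exon 11 in all 12.

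Nfe2l2 was the member that separated the controls from the cisplatin-treated mice. Every control kidney had a peak on Nfe2l2 and none of the 4 IG or 4 TG kidneys did. The peaks lay at 3 loci, the first exon with the start codon (chromosome 2, 75704364 to 75704641), the second exon, which codes for most of the Neh2 domain that KEAP1 binds, and the last exon with the stop codon (75675513 to 75677184). Each of these peaks spanned exactly its exon, as 46 of the 53 peaks of the 9 genes spanned an annotated exon, so that listed borders and lengths may be those of exons and do not place the methylated bases.

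Exon 1 was listed in control 1 with a score of 46.1 and in control 2 with 39.1. Exon 2 was listed in control 1 (205), control 3 (139) and control 4 (192), at percentiles of 66.5 to 74.4 within their lists, the percentile being the share of the kidney's peaks with a lower score. Exon 5 was listed in control 2 (172) and control 4 (81.2). No control kidney thus had all 3 loci, and the kidney without exon 2, control 2, had the other pair.

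By gene, a peak in 4 of 4 control and 0 of 4 IG kidneys gave p = 0.0286 by Fisher's exact test (two-sided), the lowest value within reach of 4 against 4. After Benjamini-Hochberg adjustment over 7517 genes, p was 0.562 for Nfe2l2 in this exact test and 0 genes passed 0.05. The same loss was seen in 3.18% of the 7517 genes and in 6.74% of the 3546 genes that had a peak in all 4 controls. A peak in all 4 controls and in none of the 8 cisplatin-treated kidneys was found for 2.02% of genes with a peak. For TG against controls the exact test on Nfe2l2 again gave p = 0.0286, adjusted 0.485 over 7235 genes, of which 4.38% were lost likewise. Counting by gene was chosen after the values were seen. By locus none of the 3 was listed in all 4 controls, so 0 of the 10 loci showed a change from 4 kidneys to 0, against 2.73% of all loci. Exon 2, with 3 control kidneys and 0 IG kidneys, had p = 0.143 in Fisher's exact test.

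Srxn1, whose product sulfiredoxin repairs overoxidised peroxiredoxins, had a similar distribution at lower scores. Its peak spanned the last exon (chromosome 2, 152108989 to 152111376), which holds the stop codon and the 3′ UTR. It was listed in control 1 with a score of 59.7, in control 2 with 36.2 and in control 4 with 34.1, and in no IG or TG kidney (Fisher's exact test, p = 0.143 in each comparison). All 3 scores were below 71.3, the median of all listed peaks. With the lists shortened to the 5901 best peaks each, 1 control kidney kept the Srxn1 peak, while all 4 kept a peak of Nfe2l2.

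Nfe2l2 exon 2 and Srxn1 exon 2 were the 2 of 10 loci with at least 3 fewer kidneys in IG, a difference seen at 8.95% of all loci. With the lists shortened it was 1 of the loci, without control 2 or control 3 it was 1, and without control 1 or control 4 it was 0. The limit of 3 kidneys was kept when a control was left out. A locus then had to be listed in every remaining control and in no IG kidney. The counts without a control thus follow from which controls were listed. Listing in exactly controls 1, 3 and 4, as for Nfe2l2 exon 2, was shared by 113 other loci, of which those with the highest median scores were in Iffo1, Zfp706 and Wdr26. The set of controls 1, 2 and 4, as for Srxn1, was shared by 87 others, led by Synpo, Fancd2os and Fzd5. In all, 413 loci had a peak in 3 control kidneys and no other.

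**Figure D2:**
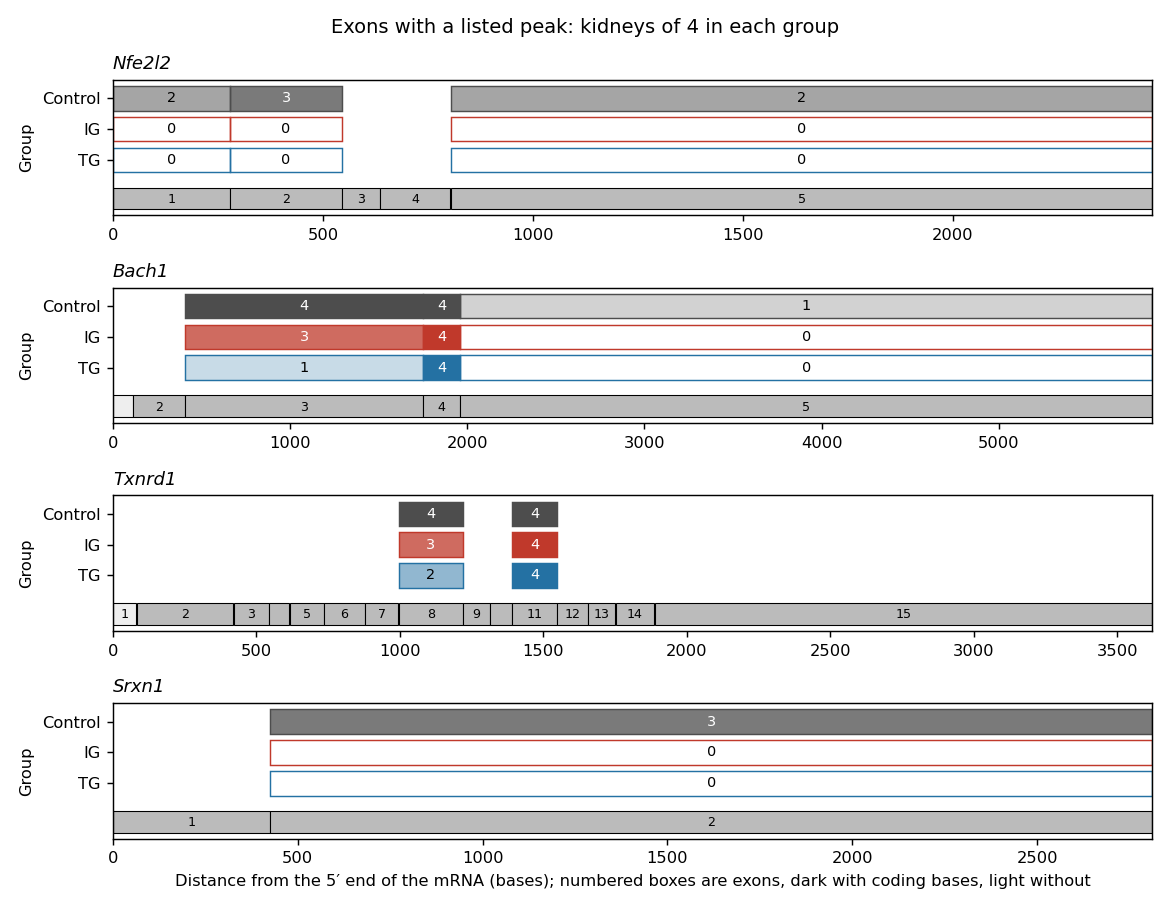
Exons of Nfe2l2, Bach1, Txnrd1 and Srxn1 along the mRNA (bases from the 5′ end), with 1 row per group; each exon with a listed peak is shaded over its whole length, and the number is the kidneys of 4 with a peak. Nfe2l2 goes from 2, 3 and 2 control kidneys to 0 in IG and TG, whereas Txnrd1 exon 11 and Bach1 exon 4 stay at 4.

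Keap1, the sensor that binds NRF2, had 1 listed peak in 12 kidneys. It was found in IG 2, on chromosome 9 from 21238880 to 21239332, over alternative first exons that are 5′ UTR. Its score of 13.0 stood at the very bottom of that kidney's list, at percentile 0.0403.

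Bach1, the repressor that occupies antioxidant response elements, kept a peak in every kidney, but the peak stood lower in the lists of TG than in those of controls. At exon 4 the control scores were 181, 186, 123 and 212. The IG scores were 83.8, 242, 119 and 50.9. The TG scores were 74.5, 77.4, 16.5 and 47.2. Control and TG scores did not overlap. The same held, in either direction, at 24.8% of the 2819 loci listed in every control and every TG kidney. The IG scores overlapped both groups, and TG 3 and TG 4 were below every IG kidney. These peaks ran from the start of exon 4 past its end, up to 87722920, the end of that exon in a transcript that retains the intron.

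The mean percentile of Bach1 exon 4 was 70.4 ± 4.51 (SD, n = 4) in controls, 59.01 ± 14.7 in IG and 37.8 ± 21.1 in TG. The difference of IG from controls gave p = 0.229 and that of TG from IG p = 0.143 in two-sided exact permutation tests over the 70 arrangements of 8 kidneys. The former difference of -11.4 points was -5.72 without IG 4 and -17.2 without IG 2, and the latter of -21.2 was -11.3 without TG 3. TG differed from controls by -32.6 points (exact permutation test, p = 0.0286, the smallest possible, adjusted 0.108 over the loci that were listed in each of the 8 kidneys, of which 0 passed 0.05 and 746 had an unadjusted p under it). A difference at least as large in either direction was found at 6.14% of the 2819 loci, and percentiles lower without overlap at 19.8%. With lists of equal length the 2 groups overlapped and the difference was -21.7 points.

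At exon 3 of Bach1, the long coding exon on chromosome 16 from 87718807 to 87720150, 4 control, 3 IG and 1 TG kidneys had a peak. The control scores were 355, 250.2, 281 and 325. IG 1 had 309.6, IG 2 had 182 and IG 4 had 122, and in TG the peak was listed only in TG 2, with 48.8. TG 2 was thus below all 7 other kidneys with the peak. For TG against controls Fisher's exact test gave p = 0.143. Together with the Nfe2l2 and Srxn1 loci this made 3 of 9 loci with at least 3 fewer kidneys in TG than in controls, against 12% of all loci. It was 0 of them without control 1 or control 4 and 1 without control 2 or control 3. The limit of 3 kidneys was kept when a control was left out, so these counts follow from which kidneys were listed. The last exon of Bach1, with the stop codon, was listed in control 4 alone, with a score of 58.1.

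Txnrd1, which encodes the cytosolic thioredoxin reductase, had its highest scores in IG. Its exon 11 was listed in all 12 kidneys, with scores of 148, 202, 361 and 183 in controls. In IG the scores were 775, 679, 575 and 706. In TG they were 287, 102, 250.2 and 535. Every IG kidney was above every control and every TG kidney, while control and TG scores overlapped.

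Mean scores at Txnrd1 exon 11 were 224 ± 94.2 (SD, n = 4), 684 ± 83.04 and 294 ± 179.5 in the order control, IG, TG, and the percentiles were 74.2 ± 7.56, 90.5 ± 0.832 and 76.8 ± 11.9. IG was higher than controls by 16.3 percentile points (two-sided exact permutation test, p = 0.0286, adjusted 0.122 over 3036 loci). It was the 1 of 2 testable member loci without overlap, at a background of 8.3% of loci higher and 15.1% lower, and 25.1% of loci differed by at least as much in either direction. On the scores themselves, a scale added after the values were seen, 22% of loci did not overlap. TG was lower than IG by 13.6 points (exact permutation test, p = 0.0286, adjusted 0.397 over 2776 loci), at a background of 4.43% lower without overlap, 7.49% without overlap on the scores, and 19.5% with a difference as large. With lists of equal length TG and IG overlapped at a difference of -12.7 points. Over all loci 0 passed after adjustment in either comparison, and 711 and 200 had an unadjusted p under 0.05 in the exact permutation test. TG and controls differed by 2.66 points (exact permutation test, p = 0.714). With lists of equal length TG was 14.4 points and IG 27.1 points above controls, so the place of TG between the other groups depended on the length of the lists. Without TG 2 the difference of TG from IG was -7.94 points.

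The second Txnrd1 locus, exon 8, did not follow exon 11. It was listed in all 4 controls with scores of 333, 215, 471 and 289. In IG it was listed in IG 1 (141), IG 2 (767) and IG 3 (432). In TG it was listed in TG 3 (526) and TG 4 (92.6). In IG 4, TG 1 and TG 2 exon 11 was listed, with 706, 287 and 102, while exon 8 was not, and the scores of exon 8 overlapped between all 3 groups.

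**Figure D3:**
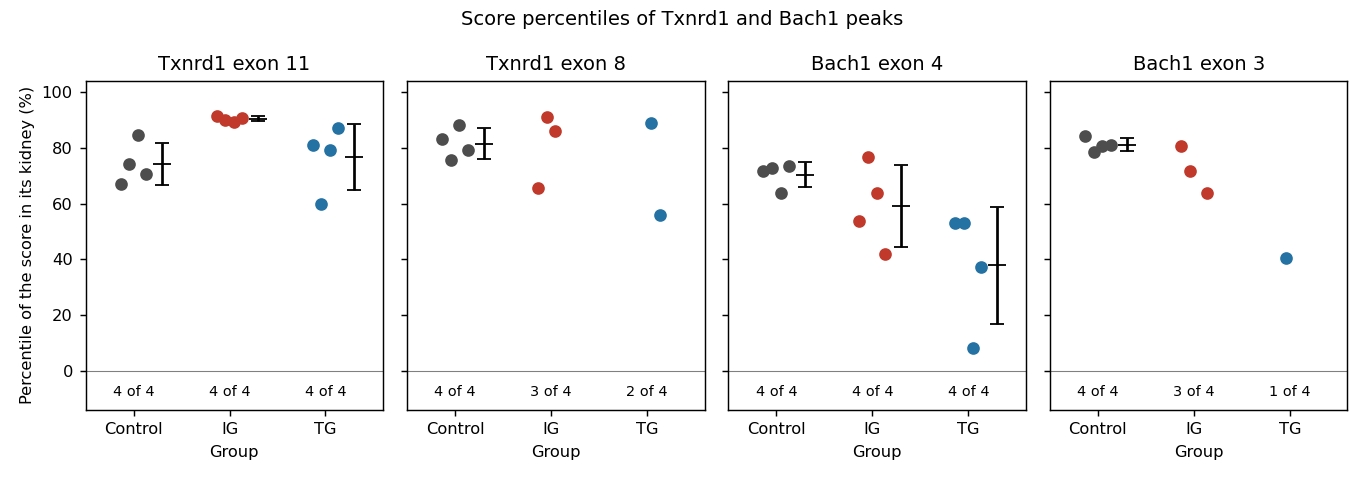
Percentile of each peak's score within its own kidney's list (vertical axis, %) by group at 2 loci of Txnrd1 and 2 of Bach1; each point is a kidney, the counts below give kidneys with a peak, and bars are mean ± SD where all 4 had one. The IG points of Txnrd1 exon 11 lie at 89.5 to 91.4, above the control and TG points of that exon, and the TG points of Bach1 exon 4 at 8.05 to 52.9, below all controls at 63.7 to 73.4.

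Gclc and Gclm, the subunits of the enzyme that starts glutathione synthesis, Nqo1, the quinone reductase, and Hmox1, the inducible haem oxygenase, had no listed peak in any of the 12 kidneys. A missing peak can lie under the calling threshold, in an mRNA with few reads or outside the exons kept, and does not show an unmethylated mRNA. The amount of each mRNA was not analysed here.

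The wider NRF2 system was read from a list of 72 regulators and targets outside the 9. A peak was listed on 21 of them, at 55 loci, and on 4 genes in all 12 kidneys, namely Cul3, the scaffold of the ligase that KEAP1 serves, the coactivators Crebbp and Ep300, and Txnrd3, a thioredoxin and glutathione reductase. Listing in 2 or more kidneys of a group was met by 16 genes for the control group, 11 for IG and 8 for TG, and among all genes by 5347, 4792 and 4164. In IG, 8 of the 55 loci had at least 3 fewer kidneys than in controls and 1 had 3 more, at a background of 8.95% with fewer and 3.82% with more. A change from 4 kidneys to 0 was seen at 5 of the 55 loci, against 2.73% of all loci. No list test was made, and no locus passed after adjustment.

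Among the regulators, Btrc, the F-box protein by which a KEAP1-independent ligase binds NRF2, had 2 loci on chromosome 19 (45456533 to 45456610 and 45521175 to 45522237) that were listed in 4 control kidneys and no other, with scores of at most 32.7. Bach2, a relative of Bach1, had a locus listed in 3 control kidneys and no other (21.8 to 89.1). Cul3 was the one gain, at a locus on chromosome 1 from 80266431 to 80267287 listed in 0 control, 3 IG (113 to 281) and 4 TG kidneys (25.01 to 60.5). The 2 coactivators had the highest scores of the list, at which the scale may saturate, as 1086 peaks in the 12 lists carry exactly 3100 and 79 a higher score. Crebbp's strongest locus ranged from 1577 to 3100 in controls, from 1926 to 3100 in IG and from 1360 to 3043 in TG, with overlap between all groups, and the 3100 may be a ceiling. Ep300's last exon ranged from 2470 to 3100 in controls, from 619 to 2448 in IG and from 472 to 2065 in TG. It was the 1 of 11 loci tested whose percentiles were lower in IG than in controls without overlap, against 15.1% of all loci. The median difference in percentile over those 11 was -5.97 points, against -2.06 over all 3036 loci.

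Among the targets, losses from 4 control kidneys to 0 IG kidneys with 1 TG kidney were seen for Abcc1, which exports glutathione conjugates (34.05 to 145 in controls), Gsta1, a glutathione transferase (26.3 to 119), and Fech, the last enzyme of haem synthesis (21.4 to 130.1). Gsta1 has close copies in the genome whose reads cannot be assigned with certainty. Ephx1, the microsomal epoxide hydrolase, went from 4 control kidneys to 1 in IG and 2 in TG at its main locus. Txnrd3 had a locus with 4, 1 and 1 kidneys and another with 1, 3 and 0. From IG to TG, 2 of 43 loci had at least 3 fewer kidneys, this Txnrd3 locus and one of Ep300 (4 to 1), against 3.21% of all loci. None of the 5 member loci with a peak in IG or TG did so. The 8 loci tested in that comparison had 0 without overlap and a median difference of 1.44 points, against -1.19 over all loci.

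The remaining named genes were among the top 2 of their classes by median score. Osgin1, a stress-induced target, was listed in 4, 3 and 3 kidneys of control, IG and TG, with scores of 365 to 1279 in controls, 94.7 to 319 in IG and 59.3 to 437 in TG. With 3 IG kidneys listed, it was not among the loci tested for scores. Hmox2, the constitutive haem oxygenase, had its stronger locus in 1 IG and 1 TG kidney. Gsta4 was listed in 3, 2 and 1 kidneys, the carboxylesterase gene Ces1g in 3, 0 and 0, and Idh1, the only gene with a peak among 6 that supply NADPH, in 1 IG kidney with a score of 16.2. Of 18 glutathione genes 4 had any peak, and of 11 genes for thioredoxin and peroxide removal Txnrd3 alone did.

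**Figure D4:**
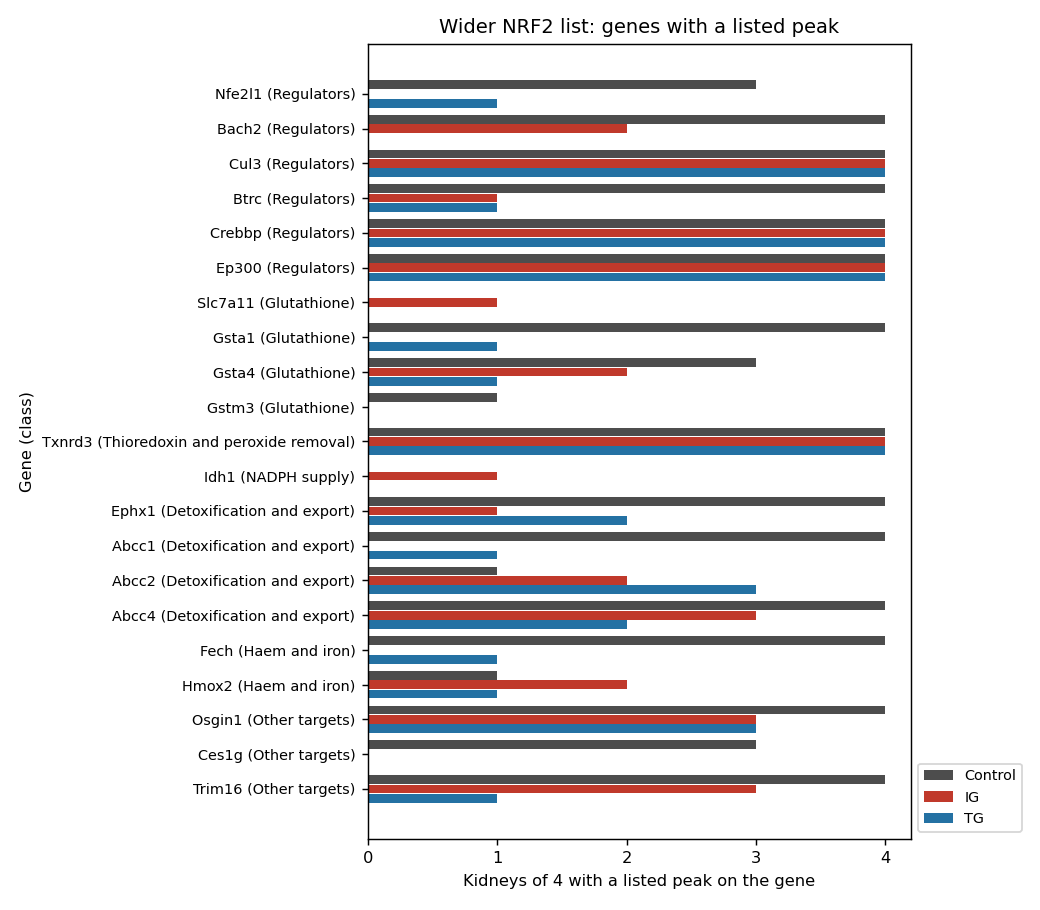
Number of kidneys of 4 in each group with a listed peak (horizontal axis) for the 21 genes of the wider list that had any. Most genes have as many kidneys in controls as in the other groups or more, while Abcc2 runs from 1 to 2 to 3 kidneys.

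For the tissue label, 11 of 27 marker genes of kidney cell types had a listed peak. Of the proximal tubule markers, Lrp2, Slc34a1 and Slc5a2 had none and 2 of 5 had a peak in 1 TG kidney each, and Umod of the thick limb had none. In IG 3 of the 20 marker loci had at least 3 more kidneys than in controls, and 0 had at least 3 fewer, against 3.82% and 8.95% of all loci. Slc12a1 of the thick limb was listed in 1 control, 4 IG and 0 TG kidneys, and of the podocyte markers Nphs1 was listed in 1, 4 and 2 and Podxl in 4, 2 and 4. Of 3 tubular injury markers, Havcr1 was listed in 0 control, 4 IG and 3 TG kidneys, and Lcn2 and Krt20 in none. Of 5 leukocyte markers, Ptprc was listed in 1 control kidney and the others in none. Of the endothelial markers Pecam1 was listed in all 12 kidneys, Emcn in 1 control and 1 TG kidney and Kdr in none. Of the fibroblast markers Pdgfrb was listed in all 12, and Col1a1 and Col3a1 in none. The part of cell makeup in the results above was not tested.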

How the data were processed

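m6A was measured by MeRIP-seq in 12 mouse kidneys, and the deposited peak list of each was used. The authors trimmed reads with Cutadapt 1.9.3, aligned them with HISAT2 2.0.4 to mm10 (GRCm38) and called peaks with MACS. The deposited score is the negative log10 of the peak's p-value times 10. The MACS version, threshold and control library are not given in the sources used here. The lists hold no read counts, so depth is unknown, and the number of kidneys limits the precision. Input libraries, RNA-seq and the authors' differential sites were not used here.

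Loci were formed by joining same-strand peaks with an overlap of 1 bp or more, and were assigned to exons of GENCODE M21. Exons were numbered in the transcript with the longest CDS. Presence was compared with two-sided Fisher's exact tests at all loci with a peak in either group. Score percentiles were compared at loci with a peak in all 8 kidneys with two-sided exact permutation tests over 70 arrangements. Adjustment was by Benjamini-Hochberg over all loci, with a threshold of 0.05. Motifs were counted on both strands. The 9 genes, the list of 72 genes, the markers and the tests were chosen with earlier results of these data known. Named from the list of 72 are genes with a locus that differed by at least 3 of 4 kidneys and, per class, the 2 with the highest median score. Abcc2 was named after its values were seen. The permutation test was checked on simulated data, with planted shifts larger than any found at the 9 genes, and the joining on a few made-up peaks. Fisher's test and the adjustment were not checked in this way. Alternatives were equal list lengths, scores at or above the median, joining within 100 bp or by 50% reciprocal overlap, other exon assignments, a replicate block and the omission of single kidneys. Python 3.11.15, numpy 2.4.6, scipy 1.17.1 and matplotlib 3.10.9 were used.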

Additional observations from a re-analysis of the deposited data

Results flagged for a closer look

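TG 1 had 2 listed peaks on the 9 genes, Bach1 exon 4 and Txnrd1 exon 11, while the other TG kidneys had 3 each, so that TG 1 met the criterion for a value apart from its group. With 3 tied counts any difference meets it, and a difference of 1 peak sets nothing apart. It was the one such case among 11 groups of 4 values examined.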

How the results depend on the processing

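The data hold no read counts, so a peak near the calling threshold can be listed in one kidney and missed in the next, and 4 kidneys per group allow no exact p under 0.0286. Nfe2l2 kept a peak in 4 control and 0 IG kidneys under every list, joining and assignment alternative. Shorter lists and a higher score limit can only remove peaks, so the 0 IG kidneys could not change under them. With scores at or above the median (71.3), the 9 genes had 6 loci in 3 genes, Srxn1 was listed in 0 kidneys, loci with at least 3 fewer kidneys numbered 1 in IvC and 1 in TvI, and in TG against controls 1 locus went from 4 kidneys to 0 and 0 loci had percentiles apart. Within these reduced lists Txnrd1 exon 11 differed by 31.6 points in IvC, -28.1 in TvI and 3.51 in TG against controls. With equal list lengths, Srxn1 was listed in 1 control kidney, loci with at least 3 fewer kidneys in IvC numbered 1, and 0 loci had percentiles apart in TvI and in TG against controls. Txnrd1 exon 11 then differed by 27.1 points in IvC, -12.7 in TvI and 14.4 in TG against controls, and Bach1 exon 4 by -5.89, -15.8 and -21.7 points.

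Leaving out single kidneys gave 0 to 1 loci with complete listing in one group against no listing in the other, in IvC and in TG against controls, 1 without control 2, without control 3 or, for the latter comparison, without TG 2. Loci that differed by at least 3 kidneys ranged from 0 to 2 in IvC (0 without control 1 or control 4), from 0 to 1 in TvI (1 without TG 2) and from 0 to 4 in TG against controls (0 without control 1 or control 4). The limit of 3 kidneys was kept when a control was left out. A loss then needed a peak in every remaining control and in no kidney of the other group, so these counts follow from the listing. Loci with percentiles apart ranged from 1 to 2 in IvC (2 without IG 2) and from 1 to 2 in TvI (2 without IG 4). Genes with such a complete change ranged from 1 to 2 in IvC and in TG against controls (2 without control 3, when Srxn1 joined Nfe2l2). The difference at Bach1 exon 4 ranged from -17.2 (without IG 2) to -5.72 points (without IG 4) in IvC and from -26.9 (without IG 4) to -11.3 points (without TG 3) in TvI. At Txnrd1 exon 11 it ranged from -17.1 (without TG 4) to -7.94 points (without TG 2) in TvI and from -0.809 (without TG 4) to 8.35 points (without TG 2) in TG against controls. Apart from the counts at the limit of 3 kidneys, the causes of these moves were not tested.

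With the replicate number as a replicate block, 0 loci passed in any comparison, since 4 pairs allow no sign-flip p under 0.125. Deviations of same-numbered kidneys correlated at -0.00573 to 0.0760 between controls and IG and at -0.0191 to 0.0858 between IG and TG, so the numbers were not taken to pair the kidneys. Of the 4 kidneys, 1 control and 2 IG kidneys correlated best with their own number. Over all settings, 310 recomputed values kept their direction and their side of the threshold or moved by less than the limit set, 32 moved further, and 2 gained, 2 lost and 1 reversed as given above.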
